A study of Homo sapiens with 21 samples.

Results

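Loss of the LIM-homeodomain transcription factor ISL1 was examined in islet cells differentiated in culture from H1, an established line of human embryonic stem cells. The comparison took the 5 libraries, of 21 in the series, that carried the control vector and whose labels give the genotype ISL1-/- (3 libraries) or WT (2 libraries). Cells of both groups received a lentivirus with the blue fluorescent protein BFP alone on day 11 of differentiation, and BFP-positive cells were sorted on day 18. Both groups therefore share the transduction, the sort and the absence of the ISL1 vector, and they differ in the labelled genotype. The submitters describe the libraries of a group as biological replicates. The labels do not say which part of ISL1 was edited or how many clones the ISL1-/- cells came from, so an effect of the genotype and a difference between cell lines cannot be told apart. The other 16 libraries were ISL1-/- and WT cells with a vector carrying ISL1 together with BFP, and PAX6-/- and PDX1-/- cells with either vector. They served to estimate the spread and, where named, as a second set of values.

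ISL1 binds DNA through a homeodomain and works with cofactors that bridge its LIM domains to other factors. In the pancreas it is made as cells leave the cell cycle and become endocrine, and it is needed for the maturation and survival of the hormone cells. In motor and sensory neurons it also helps to choose the cell's subtype. Islet endocrine cells are classed by their hormone: insulin in beta cells, glucagon in alpha cells, somatostatin in delta cells, pancreatic polypeptide in PP cells and ghrelin in epsilon cells. Cultures of stem cell-derived islets also hold enterochromaffin cells, which make serotonin.

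The 5 libraries held between 36807615 and 60199880 counts, and mitochondrial genes took 1.30% to 1.83% of them. Levels are given as CPM, the gene's counts relative to a library total that is the same for all libraries after TMM scaling, and changes as log2 fold changes of ISL1-/- BFP over WT BFP with their standard error (SE). Across genes, log2 CPM of any 2 libraries of a group correlated at 0.983 to 0.988, and each pair differed by more than sampling noise. The labelled tissue was checked against its markers: CHGA, a granin of endocrine granules, had 19725 to 32938 CPM in each of the 5 libraries. AFP, a protein of fetal liver and endoderm, was at 1788 to 5417 CPM in the same libraries. Among the other libraries, PAX6-/- ISL1 replicate 3 and PDX1-/- ISL1 replicate 4 stood apart, with 3.16% and 3.84% mitochondrial counts against 1.28% to 1.93% in the rest. Neither belongs to the groups compared, but both enter the estimate of the spread, so counts of genes are also given without them.

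A gene was called at a Benjamini-Hochberg adjusted p under 0.05 in edgeR's quasi-likelihood test. Of 25884 genes tested, 1448 were called (5.59%). Of these, 433 were higher in ISL1-/- (1.67% of genes tested) and 1015 were lower (3.92%). The count was 6417 of 27284 tested (3091 higher, 3326 lower) without the 2 libraries that stood apart, and it included all 1448 genes. It fell to 459 without WT BFP replicate 1, to 503 without WT BFP replicate 3, and to 759, 883 and 604 without ISL1-/- BFP replicates 1, 2 and 3. In every one of these 5 fits 316 of the genes were called in the same direction, 38 of them higher and 278 lower. The median change was -1.90 over the genes that fell and 1.71 over those that rose, beside 0.02 over all genes tested. The groups did not overlap for any of the 1448, which is no separate support, since a call favours such genes. The share without overlap over all genes tested is not given here. In bulk samples fewer cells of a type and less RNA per cell cannot be told apart, which holds for all results here.

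ISL1 itself (chromosome 5, 51383448 to 51394730, plus strand, GRCh38) had 73.7, 74.6 and 82.4 CPM in the ISL1-/- libraries and 306 and 519 CPM in the WT libraries. The knockout libraries thus kept ISL1 RNA at a low, even level, and the WT libraries were higher and farther apart. The difference was -2.42 (SE 0.39, adjusted p = 0.00126), and it ranged from -2.75 to -2.00 when single libraries were left out. The remaining counts do not show which part of the gene they come from, so the level checks the label but not the edit.

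The promoters of 4 genes with some of the largest falls are shown because ISL1 has long been studied at hormone promoters, where homeodomain proteins read a TAAT core. Each sequence is the 250 bases before the transcription start in RefSeq (GRCh38.p14), written 5′ to 3′ along the gene, with every TAAT, or its complement ATTA, in capitals. GCG lies at chr2:162152248-162152497 (minus strand), SST at chr3:187670395-187670644 (minus strand), IAPP at chr12:21372652-21372901 (plus strand, the downstream of 2 listed starts) and G6PC2 at chr2:168901041-168901290 (plus strand).
GCG: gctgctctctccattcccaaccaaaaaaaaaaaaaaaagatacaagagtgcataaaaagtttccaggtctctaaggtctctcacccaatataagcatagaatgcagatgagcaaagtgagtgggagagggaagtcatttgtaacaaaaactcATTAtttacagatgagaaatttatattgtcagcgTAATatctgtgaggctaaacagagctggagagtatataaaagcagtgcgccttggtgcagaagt
SST: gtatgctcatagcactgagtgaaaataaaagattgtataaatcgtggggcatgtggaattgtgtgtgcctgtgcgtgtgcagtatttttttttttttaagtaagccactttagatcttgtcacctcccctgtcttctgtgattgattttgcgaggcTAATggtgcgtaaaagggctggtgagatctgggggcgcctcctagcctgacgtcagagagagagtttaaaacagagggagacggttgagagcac
IAPP: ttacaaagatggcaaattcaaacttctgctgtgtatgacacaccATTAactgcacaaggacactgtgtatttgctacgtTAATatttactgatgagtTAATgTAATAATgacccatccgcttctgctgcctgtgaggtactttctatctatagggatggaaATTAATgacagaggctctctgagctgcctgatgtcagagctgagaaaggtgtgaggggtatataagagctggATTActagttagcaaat
G6PC2: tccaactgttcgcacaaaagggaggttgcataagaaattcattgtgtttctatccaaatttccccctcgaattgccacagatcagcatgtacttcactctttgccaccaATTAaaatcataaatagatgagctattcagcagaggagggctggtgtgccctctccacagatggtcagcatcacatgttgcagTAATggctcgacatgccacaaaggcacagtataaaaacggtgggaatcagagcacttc
The GCG window held 2 matches and the SST window 1, which there forms part of the longer CTAATG, and the G6PC2 window held 2. The IAPP window held 8, some of them overlapping. TAAT on either strand was found in 36.5% of the 14750 tested genes with such a window. It was found in 45.4% of the 716 genes lower in ISL1-/- that had one, and in 34.1% of the 267 that were higher. Base composition moved with this: the median GC content was 63.6% over all windows, 61.2% for lower genes and 64.0% for higher genes, and its part in the shares was not tested. The longer CTAATG, on either strand and always overlapping a TAAT, was in 4.0% of all windows, 3.8% for lower genes and 6.0% for higher genes. CTAATT, likewise, was in 4.9%, 7.4% and 4.5%. A match is a string of letters and not a bound site.

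Most hormone genes were lower in ISL1-/-. GCG, which encodes glucagon, had 36245 and 51317 CPM in the WT libraries and 90.9, 74.2 and 85.3 CPM in the ISL1-/- libraries. In WT it was the strongest of the hormone genes by counts, and no knockout library came near it (log2 fold change -9.03, SE 1.16, adjusted p = 0.000211). SST, for somatostatin, had 92.7 and 138 CPM in WT against 0.39, 0.572 and 0.56 CPM in ISL1-/- (-7.82, SE 1.03, adjusted p = 0.000258). PYY, for peptide YY of gut and islet endocrine cells, had 99.9 and 83.7 CPM in WT and 0.814, 0.451 and 1.23 CPM in ISL1-/- (-6.78, SE 1.02, adjusted p = 0.000766). IAPP, for the amyloid peptide that beta cells release with insulin, had 8.24 and 7.92 CPM in WT and 0.159, 0.156 and 0.124 CPM in ISL1-/- (-5.77, SE 0.99, adjusted p = 0.00196). PPY, for pancreatic polypeptide, had 67 and 127 counts in WT and 0, 0 and 1 count in ISL1-/-. Its ratio was 441, with a 95% counting interval of 78.2 to 17491 (exact, from the binomial, covering counting error only), and its adjusted p was 0.00189. For all 5 genes every ISL1-/- library lay below both WT libraries, and each call was kept in all 5 fits that left out a library of the comparison.

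Insulin did not follow the same scale. INS had 7185 and 5651 CPM in WT and 2252, 2392 and 1700 CPM in ISL1-/-, so the groups did not overlap, but the change of -1.60 (SE 0.94) had an adjusted p of 0.388. INS passed without PDX1-/- ISL1 replicate 4 (0.0188) but not without PAX6-/- ISL1 replicate 3 (0.301), and without both its adjusted p was 0.000212 at a change of -1.58. With all libraries kept, INS also passed in limma voom with sample weights (0.00181) and with the replicate block by library number (0.0332). It passed on only the 5 libraries compared (0.000306) and on the 11 BFP libraries (0.00124) as well. GHRL, for ghrelin, and NPY, for neuropeptide Y, likewise passed in some fits and not in others. GHRL had 74.5 and 83.6 CPM in WT and 40.9, 37.3 and 50.8 CPM in ISL1-/- (-0.88, adjusted p = 0.448, and 0.00953 without both). NPY had 35.8 and 114 CPM against 13.7, 11.9 and 19.9 CPM (-2.30, adjusted p = 0.0872, and 0.000623 without both). Of the 8 hormone genes 5 were therefore lower and 0 higher, with a median of -6.27, and all 8 were lower without the libraries that stood apart.

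**Figure D1:**
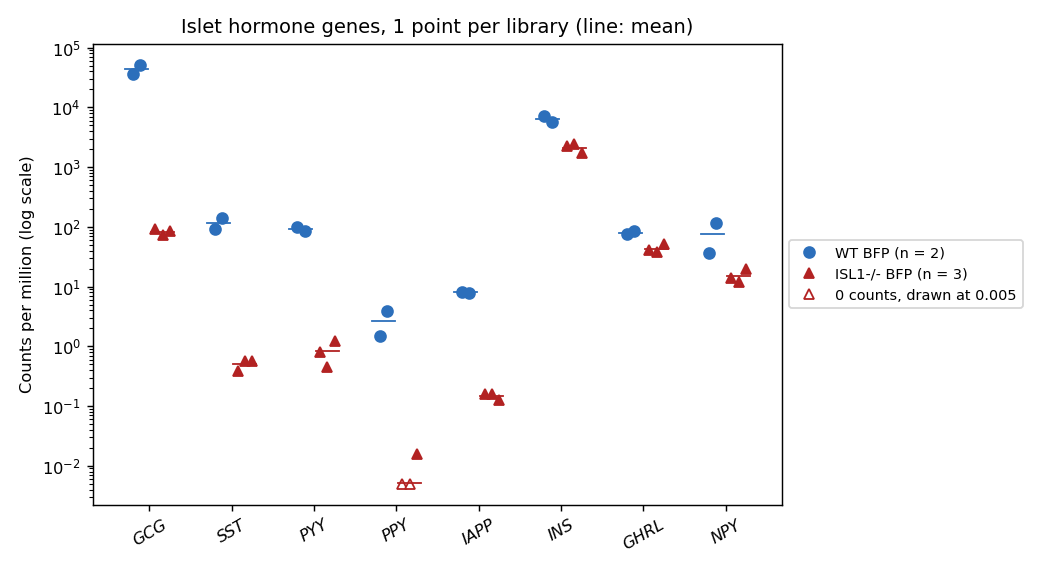
CPM (log axis) of 8 islet hormone genes in each library, with WT BFP as circles and ISL1-/- BFP as triangles and a line at each group's mean. The WT points of GCG stand at 36245 and 51317 CPM and its ISL1-/- points at 74.2 to 90.9 CPM, while the INS points of the groups lie within 1700 to 7185 CPM. Open triangles mark the 2 libraries with 0 counts of PPY.

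Genes that mark the separate hormone cells fell in part and not as blocks. The lists were drawn from general knowledge of islets, with earlier results of these data known. Of 20 alpha cell genes other than GCG, 7 were lower and 0 higher (median -0.65), beside 1015 and 433 of all 25884 genes tested. With the pair of libraries that stood apart left out, 9 were lower and 4 higher, beside 3326 and 3091 of all 27284 tested. LOXL4, a matrix cross-linking enzyme, fell from 74.3 and 105 CPM to 1.63, 2.98 and 2.52 CPM (-5.23, SE 0.59, adjusted p = 4.6e-05). FAP, a membrane protease, had 33 and 31 counts in WT and 0 in each ISL1-/- library, which with 3 counts over the group as the floor makes it at least 48.5-fold lower (adjusted p = 0.00702). The transthyretin gene TTR had 3803 and 3295 CPM in WT and 443, 392 and 418 CPM in ISL1-/- (-3.09, adjusted p = 0.0117). That call was lost without ISL1-/- BFP replicate 2 or 3 or WT BFP replicate 1 (adjusted p up to 0.0688). DPP4, the peptidase that inactivates incretin hormones, and TM4SF4 fell by 2.18 and 1.77 and were lost without any one of the 5 libraries (up to 0.148 and 0.226). PLCE1 fell by 1.58 and was lost without ISL1-/- BFP replicate 3 or either WT library (up to 0.0923). PCSK2, which cleaves proglucagon, overlapped between groups, with 214 and 313 CPM against 201, 210 and 233 CPM (-0.30, adjusted p = 0.544). IRX2, an alpha cell transcription factor, was at 47.8 and 55 CPM against 31.8, 30.8 and 39.4 CPM without passing (-0.60, adjusted p = 0.345).

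Beta cell genes split in direction. Of 23 tested, 5 were lower and 3 higher, with a median of -0.17. G6PC2, the islet glucose-6-phosphatase, fell from 87.6 and 104 CPM to 0.992, 1.18 and 1.46 CPM (-6.30, SE 0.95, adjusted p = 0.00107). ERO1B, an oxidase that helps proinsulin fold, fell from 1105 and 1448 CPM to 110, 157 and 124 CPM (-3.29, SE 0.29, adjusted p = 4.25e-06). SLC30A8, the zinc transporter of insulin granules, fell from 376 and 442 CPM to 46.9, 59.5 and 66.8 CPM (-2.83, SE 0.27, adjusted p = 7.55e-06). ENTPD3, an ectonucleotidase on beta cells, fell from 5.52 and 7.83 CPM to between 0.327 and 0.503 CPM (-3.95, adjusted p = 0.00107). These 4 kept their call whichever library was left out. SLC2A2, the glucose transporter GLUT2, was at 25.7 and 29.1 CPM in WT and 6, 7.19 and 3.55 CPM in ISL1-/- (-2.30, adjusted p = 0.00898), and was lost without ISL1-/- BFP replicate 3 or WT BFP replicate 3 (up to 0.07).

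The beta cell genes that rose were SYT13, NKX6-1 and SIX3. SYT13, a synaptotagmin that marks cells entering the endocrine lineage, rose from 47.9 and 51.2 CPM to 129, 140 and 139 CPM (1.45, SE 0.22, adjusted p = 0.000759). NKX6-1, a homeodomain factor of pancreatic progenitors and beta cells, rose from 46 and 79.6 CPM to 203, 200 and 253 CPM (1.80, SE 0.39, adjusted p = 0.0103). SIX3, a transcription factor of mature human beta cells, rose from 0.308 and 0.786 CPM to 1.85 to 2.71 CPM (2.15, adjusted p = 0.0125). The calls of NKX6-1 and SIX3 were lost without WT BFP replicate 1 (adjusted p 0.187 and 0.217). The transcription factor genes PDX1, of the beta cell list, and NEUROD1, of endocrine cells in general, overlapped between groups. PDX1 had 80 and 102 CPM in WT and 92, 81.6 and 104 CPM in ISL1-/- (0.02, adjusted p = 0.979). NEUROD1 changed by -0.31 (adjusted p = 0.78).

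Of 12 delta cell genes other than SST, 4 were lower and 0 higher (median -1.39). HHEX, the homeodomain factor that delta cells require, fell from 26.3 and 27.9 CPM to 5.61, 6.03 and 3.58 CPM (-2.42, SE 0.31, adjusted p = 0.000221). CASR, the calcium-sensing receptor, had 151 and 119 CPM in WT and 19.2, 29.3 and 23 CPM in ISL1-/- (-2.50, adjusted p = 0.016), and kept its call only when ISL1-/- BFP replicate 2 was the library left out (up to 0.113). RBP4, a retinol carrier, and LEPR, the leptin receptor, fell by 2.83 and 1.41 and were lost without any one of the 5 libraries (up to 0.127 and 0.277). Without the pair of libraries that stood apart 9 of the 12 were lower, beside 3326 of all 27284 genes tested.

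Among 11 genes of PP and epsilon cells, 5 were lower and 0 higher (median -0.89). With the pair of libraries that stood apart left out, 8 were lower and 1 higher, beside 3326 and 3091 of all 27284 tested. ETV1, an ETS transcription factor, fell from 89 and 119 CPM to 15.3, 22.5 and 16.3 CPM (-2.53, SE 0.25, adjusted p = 1.23e-05). SPTSSB, a subunit of the enzyme that starts sphingolipid synthesis, fell from 78 and 79.4 CPM to 13, 16 and 12.6 CPM (-2.50, SE 0.43, adjusted p = 0.00189). SERTM1, THSD7A and the water channel gene AQP3 fell by 1.53, 1.26 and 1.17. Each was lost without at least 3 of the 5 libraries, WT BFP replicate 1 always among them (up to 0.279, 0.096 and 0.22). All of these genes share the bulk libraries with the hormones, so they are not independent counts of cells.

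Genes of serotonin-making cells ran the other way. Of 13 tested, 6 were higher and 2 lower, with a median of 1.39, the highest of the 23 lists. CBLN1, a secreted synapse organiser, rose from 19.3 and 27.1 CPM to 113, 105 and 175 CPM (2.50, SE 0.34, adjusted p = 0.000333) and kept its call in all 5 fits. TPH1, the enzyme that commits tryptophan to serotonin, rose from 29.2 and 56.6 CPM to 141, 174 and 229 CPM (2.08, SE 0.54, adjusted p = 0.0309). DDC, the decarboxylase of the next step, rose from 304 and 314 CPM to 633, 628 and 774 CPM (1.13, SE 0.22, adjusted p = 0.00444). SLC18A1, the vesicular monoamine transporter, rose from 37.6 and 64.1 CPM to 159, 167 and 230 CPM (1.86, adjusted p = 0.0335). LMX1A, a LIM-homeodomain factor of these cells, rose from 88.1 and 93.9 CPM to 279, 296 and 333 CPM (1.74, adjusted p = 0.0263). MME, the peptidase neprilysin, rose by 1.59 (adjusted p = 0.048). No ISL1-/- library overlapped a WT library for any of the 6, as for every called gene.

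These calls were less firm than those of the hormones. DDC was lost without either WT library (adjusted p up to 0.0728), and TPH1 was lost without ISL1-/- BFP replicate 2 or 3 or either WT library (up to 0.308). SLC18A1, LMX1A and MME were lost without any one of the 5 (up to 0.316, 0.218 and 0.306). FEV, the transcription factor of serotonin neurons and enterochromaffin cells, was at 385 and 451 CPM in WT and 1061, 896 and 1342 CPM in ISL1-/-, with an adjusted p of 0.0761 (1.39) that became 9.28e-05 without the pair of libraries that stood apart. In that fit 9 of the 13 genes were higher, beside 3091 of all 27284 genes tested. The 2 members that fell were SLC6A4, the transporter that takes serotonin back up, and GUCY2C, the intestinal guanylate cyclase receptor. SLC6A4 went from 28.1 and 17.7 CPM to 1.7, 2.1 and 2.54 CPM (-3.44, SE 0.57, adjusted p = 0.0017). GUCY2C went from 88.7 and 89.7 CPM to 16.3, 21.2 and 11 CPM (-2.46, SE 0.46, adjusted p = 0.00378). Both kept their call in all 5 fits. The summed level of the 13 genes was 1220 and 1371 CPM in WT and 2950 to 3812 CPM in ISL1-/-.

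**Figure D2:**
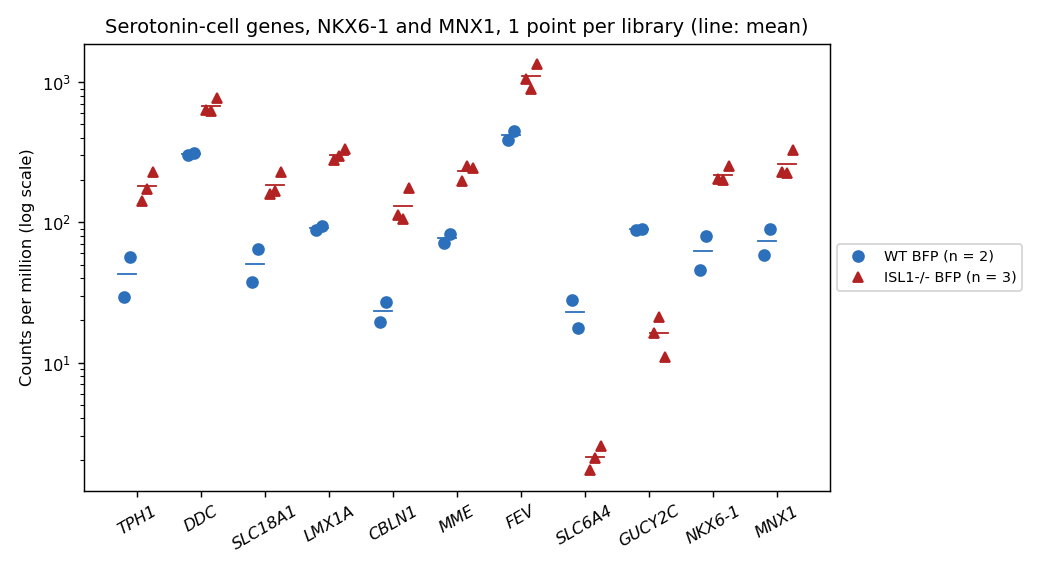
CPM (log axis) of genes of serotonin-making cells, and of NKX6-1 and MNX1, in each library. Circles are WT BFP, triangles ISL1-/- BFP and lines group means. Triangles lie above circles for 7 of the serotonin-cell genes, TPH1 at 141 to 229 CPM against 29.2 and 56.6 CPM, and below them for SLC6A4 and GUCY2C.

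Of 26 general endocrine genes, which serve secretion in endocrine cells of any kind, 1 was higher and 2 lower, with a median of 0.20. Without the pair of libraries that stood apart 6 were higher and 4 lower, beside 3091 and 3326 of all 27284 genes tested. CPE, the carboxypeptidase that trims prohormones, fell from 1122 and 1425 CPM to 324, 365 and 401 CPM (-1.81, SE 0.29, adjusted p = 0.00122). SCG5, a granin-like chaperone, fell by 2.08 and was lost without any one of the 5 libraries (up to 0.198). MYT1L, a neuronal zinc finger factor, rose by 1.86 and was lost without ISL1-/- BFP replicate 3 or either WT library (up to 0.217). CHGA did not pass (0.29, adjusted p = 0.742). PAX6, an endocrine homeodomain factor, had 140 and 232 CPM in WT and 73.5, 71.4 and 111 CPM in ISL1-/- (-1.12, adjusted p = 0.164, and 0.00498 without the pair that stood apart). Of 31 genes of granule docking and fusion, 28 had a fold change above 0, beside 13408 of all 25884 genes tested. Only SYT13 and RAB3C were called higher and CADPS2 lower. RAB3C, a vesicle GTPase, rose by 1.07 and was lost without 4 of the 5 libraries, all but ISL1-/- BFP replicate 1 (up to 0.262). CADPS2, which primes dense-core vesicles, fell by 1.54 and was lost without WT BFP replicate 1 (0.063). Without the pair that stood apart 13 of the 31 were higher and 3 lower, beside the same 3091 and 3326 of 27284.

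Of 14 endocrine progenitor genes SOX11 was higher and CDKN1A lower (median 0.50), where 5.59% of all genes tested were called. CDKN1A, the cell cycle inhibitor p21, fell from 213 and 250 CPM to 67.4, 54.8 and 60.7 CPM (-1.93, SE 0.28, adjusted p = 0.000602). SOX11 rose by 0.76 and was lost without any one of the 5 libraries (up to 0.237). NEUROG3, the factor that starts the endocrine program, was at 117 and 178 CPM in WT and 306, 317 and 391 CPM in ISL1-/- (1.20, adjusted p = 0.0582, and 0.00197 without the pair that stood apart). Of 17 transcription factors of pancreatic progenitors, NKX6-1 was called higher, 0 were lower and 16 had a fold change above 0 (median 0.29). All 20 cell cycle genes had a fold change above 0 and 0 were called by edgeR (median 0.53). Over all 25884 genes tested 13408 had a fold change above 0. At an unadjusted p under 0.05 there were 3 cell cycle genes, beside 4971 of all genes tested. DESeq2 called 1 and limma voom with sample weights 12, all higher, beside 2419 and 6878 of all genes called in either direction. MKI67, a marker of dividing cells, was at 35.4 and 21.1 CPM in WT and 65.4, 61.1 and 41.6 CPM in ISL1-/- (0.99, adjusted p = 0.251). Without the pair that stood apart 7 of the 20 were higher, MKI67 included (adjusted p = 0.0471), beside 3091 of all 27284 genes tested.

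**Figure D3:**
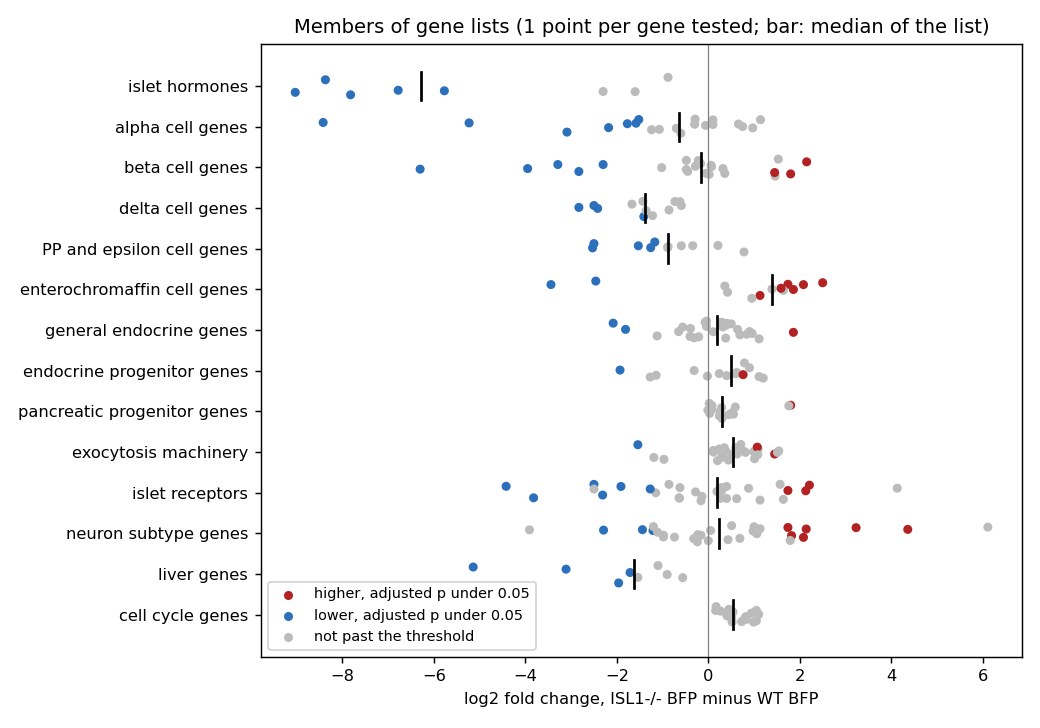
log2 fold change (ISL1-/- BFP minus WT BFP) of every tested member of 14 gene lists, 1 point per gene, with a bar at each list's median. Red points are called higher, blue lower and grey not called. Called hormone genes reach from -5.77 to -9.03, the median of the enterochromaffin list stands at 1.39 and that of the delta cell list at -1.39.

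Members of a list of ISL1, LIM-domain genes and their partners changed in both directions. The list also holds MNX1, a homeodomain gene that is not a LIM-domain gene. Of 21 tested, 5 were lower, ISL1 included, and 3 higher, LMX1A of the serotonin cells included (median 0.08). LMO2, a LIM-only adaptor, fell from 39.5 and 51.3 CPM to 1.59, 1.13 and 1.43 CPM (-5.03, SE 0.49, adjusted p = 9.91e-06). LDB2, a cofactor that joins LIM proteins, fell from 14.7 and 26.6 CPM to 2.96, 3.21 and 5.34 CPM (-2.43, SE 0.36, adjusted p = 0.000641). Its paralog LDB1 was at 18.3 and 18.2 CPM in WT and 24.8, 25.1 and 31.7 CPM in ISL1-/- (0.58, adjusted p = 0.101, and 0.0055 without the pair of libraries that stood apart). The LIM-homeodomain genes LHX1 and LHX4 fell by 2.40 and 1.44, from under 6 CPM, and were lost without any one of the 5 libraries (up to 0.18 and 0.239). MNX1, a homeodomain factor of beta cells and motor neurons, rose from 58.4 and 89.3 CPM to 230, 224 and 327 CPM (1.82, SE 0.36, adjusted p = 0.00545) and was lost without WT BFP replicate 1 (0.123). SSBP3, which binds LDB proteins, rose by 0.76 and was lost without any one of the 5 (up to 0.307). Of 14 genes described elsewhere as bound or controlled by ISL1, 5 were lower, GCG, SST, IAPP and SLC2A2 among them, and MNX1 was higher. That list was drawn up from general knowledge and overlaps the lists above.

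RNA of some islet receptors was lower, and the sensing itself was not measured. GPR119, a receptor for lipid signals that raises hormone release, fell from 199 and 249 CPM to 7.65, 15.7 and 8.06 CPM (-4.42, SE 0.29, adjusted p = 1.51e-07), one of the smallest p values of all genes. FFAR4 and FFAR1, receptors for long-chain fatty acids, fell too. FFAR4 went from 2.2 and 4.11 CPM to between 0.0693 and 0.373 CPM (-3.82, adjusted p = 0.00105). FFAR1 went from 75.4 and 84.5 CPM to 14.6, 17.9 and 16 CPM (-2.31, adjusted p = 0.0424), and was lost without any one of the 5 libraries (up to 0.193). CHRM3, the muscarinic acetylcholine receptor of islets, fell by 1.91 and was lost without WT BFP replicate 3 (0.056). PTGER3, a prostaglandin receptor, fell by 1.27 and was lost without any one of the 5 (up to 0.232). In all, 6 of 31 receptors were lower, CASR among them, and 3 were higher (median 0.19). GLP1R, the GLP-1 receptor, had 50.1 and 55 CPM in WT and 53.1, 66.5 and 73 CPM in ISL1-/- (0.29, adjusted p = 0.806).

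The receptors that rose were NPY1R and NPY5R, for neuropeptide Y and its relatives, and VIPR2, for vasoactive intestinal peptide. NPY5R rose from 2.33 and 5.17 CPM to 13.5, 16.1 and 19.3 CPM (2.13, adjusted p = 0.0017) and NPY1R from 24.9 and 30.6 CPM to 86.8, 99.3 and 91.1 CPM (1.74, adjusted p = 0.0148). Their deposited ranges overlap on chromosome 4 (NPY1R 163323962 to 163344832, minus strand, and NPY5R 163343892 to 163351934, plus strand), and no source used here states that the counting used strand, so reads from the shared stretch cannot be told apart. VIPR2 rose from 0.549 and 0.484 CPM to 1.86, 2.76 and 2.6 CPM (2.21, adjusted p = 0.00245). NPY5R was lost without WT BFP replicate 1 (0.0506), VIPR2 without WT BFP replicate 3 (0.0524) and NPY1R without either (up to 0.179).

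Of 29 genes of glucose handling and the ion channels of secretion, 6 were lower and 1 higher (median -0.22). Besides G6PC2, SLC30A8 and SLC2A2 these included ABCC9, a sulfonylurea receptor subunit of potassium channels, which fell from 4.2 and 5.83 CPM to between 0.354 and 0.589 CPM (-3.47, adjusted p = 0.000567). KCNK16, the two-pore potassium channel TALK-1 of islets, fell from 416 and 439 CPM to 161, 172 and 178 CPM (-1.33, SE 0.20, adjusted p = 0.000835). SLC2A3, the glucose transporter GLUT3, fell from 50.8 and 57.5 CPM to 12.1, 9.95 and 16.4 CPM (-2.07, SE 0.22, adjusted p = 2.88e-05). Its near-identical copy SLC2A14 fell as well (-3.65, adjusted p = 0.00318), and the counting may have divided reads between them. The subunits of the ATP-sensitive channel did not pass: ABCC8 was at 715 and 644 CPM in WT and 455, 574 and 725 CPM in ISL1-/- (-0.22, adjusted p = 0.781), and KCNJ11 changed by -0.28 (adjusted p = 0.505).

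Among 30 genes of motor and sensory neurons, where ISL1 also acts, 6 were higher and 3 lower (median 0.24). NGFR, the low-affinity neurotrophin receptor, rose from 1.12 and 0.453 CPM to 14.1, 14.2 and 21 CPM (4.36, SE 0.91, adjusted p = 0.00842) and was lost without either WT library (up to 0.138). POU4F1, a POU-domain factor of sensory neurons, rose from 0.176 and 0.151 CPM to 1.61, 1.54 and 1.52 CPM (3.23, SE 0.51, adjusted p = 0.00113) and kept its call in all 5 fits. NTRK3, the neurotrophin-3 receptor, rose from 1.45 and 2.6 CPM to 7.9, 8.84 and 9.97 CPM (2.14, adjusted p = 0.00145) and was lost without WT BFP replicate 1 (0.0515). GFRA1, a GDNF co-receptor, rose from 26.6 and 39.1 CPM to 91.8, 116 and 122 CPM (1.74), while its relatives GFRA2 and GFRA3 fell by 1.21 and 2.29. ELAVL3, a neuronal RNA-binding protein, rose by 2.08. The call of GFRA1 was lost without ISL1-/- BFP replicate 3 or either WT library (up to 0.21), and that of ELAVL3 without these or ISL1-/- BFP replicate 1 (up to 0.328). GFRA2 was lost without each library but WT BFP replicate 1, and GFRA3 without any of the 5 (up to 0.587 and 0.15). The remaining member that rose was MNX1, and the remaining one that fell was LHX4.

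Markers of other cell types that the sort could hold were measured beside these results. Of 8 hepatocyte genes 4 were lower and 0 higher (median -1.62), and their summed level was 15174 and 17379 CPM in WT and 6519 to 9217 CPM in ISL1-/-. With the pair of libraries that stood apart left out, all 8 were lower, beside 3326 of all 27284 genes tested. TF, transferrin, fell from 249 and 442 CPM to 9.76, 10.3 and 9.32 CPM and had the smallest p of all genes (-5.14, SE 0.31, adjusted p = 9.46e-08). ALB, SERPINA1 and AHSG, genes of serum proteins, fell by 1.96, 1.71 and 3.11. ALB was lost without ISL1-/- BFP replicate 3 or WT BFP replicate 1 (up to 0.13), SERPINA1 without those or WT BFP replicate 3 (up to 0.0953), and AHSG without any one of the 5 (up to 0.206). Of 14 acinar and duct genes 4 were lower and 0 higher (median -0.50). Of 17 mesenchymal and endothelial genes edgeR called 0, with 3 at an unadjusted p under 0.05, beside 4971 of all 25884 genes tested. DESeq2 called 2 of these lower, and limma voom with sample weights 2 lower and 1 higher. Collagen genes were uneven within WT: COL3A1 had 820 CPM in WT BFP replicate 1 and 124 CPM in replicate 3, against 39.5, 91 and 186 CPM in ISL1-/-. The summed level of that list was 1308 CPM in WT BFP replicate 1, and in the other 4 libraries it was from 161 to 421 CPM. Its part in the results was not tested.

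Acinar and duct genes that fell were SPP1, osteopontin (-1.76), ANXA4, a membrane-binding annexin (-0.92), and the digestive enzymes CEL (-1.34) and CELA3A (-2.88), the last of which has a near-identical neighbour, CELA3B, with which it may share reads. SPP1 was lost without WT BFP replicate 1 (0.0679), ANXA4 without either WT library (up to 0.108), CELA3A without ISL1-/- BFP replicate 3 or WT BFP replicate 1 (up to 0.0828) and CEL without any one of the 5 (up to 0.294). Of 20 genes of stomach and intestine regions 3 were higher and 3 lower (median -0.13). OSR1, a zinc finger factor of foregut mesoderm and endoderm, rose from 14.2 and 14.9 CPM to 91.3, 79.2 and 96.8 CPM (2.61, SE 0.39, adjusted p = 0.000641) and kept its call in all 5 fits. TFF3 and TFF2, trefoil peptides of mucus, rose by 2.00 and 2.26 and were lost without either WT library (up to 0.123 and 0.113). LGALS4, an intestinal galectin, fell from 29.3 and 25.9 CPM to 2.2, 2.29 and 1.42 CPM (-3.81, adjusted p = 0.0127) and was lost without ISL1-/- BFP replicate 1 or 3 or WT BFP replicate 1 (up to 0.074). VIL1, a microvillus protein, fell by 0.81 and was lost without any one of the 5 (up to 0.32).

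Of 16 genes of the unfolded protein response 3 were lower and 0 higher (median -0.53), beside 1015 and 433 of all 25884 genes tested. A fold change below 0 was found for 14 of the 16, while 13408 of all 25884 genes had one above 0. HSPA5, the chaperone BiP, had 2661 and 2837 CPM in WT and 1645, 1686 and 1518 CPM in ISL1-/- (-0.77, SE 0.16, adjusted p = 0.00699), and was lost without either WT library (up to 0.098) and with no filter on low counts (0.108). HSP90B1 and DNAJB9, which serve the same folding machinery, fell by 0.63 and 1.35 and were lost without any one of the 5 libraries (up to 0.207 and 0.226), HSP90B1 also with no filter (0.248). Without the pair of libraries that stood apart 9 of the 16 were lower, beside 3326 of all 27284 genes tested. Of 23 peptide hormones of gut and brain only CRH and GNRH2 were called, both lower (median -0.48). With the pair that stood apart left out, 6 were lower and 2 higher, beside 3326 and 3091 of all 27284 tested. CRH, corticotropin-releasing hormone, fell from 24 and 26.1 CPM to 1.13, 1.18 and 1.32 CPM (-4.37, SE 0.83, adjusted p = 0.00444). GNRH2 fell by 3.31 and was lost without any one of the 5 libraries (up to 0.333). Of 8 pluripotency genes tested edgeR called 0, with 2 at an unadjusted p under 0.05, beside 4971 of all 25884. DESeq2 called 2 lower. Limma voom with sample weights called 2 lower and 1 higher.

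The genes with the largest changes were named by size among called genes whose higher group averaged 10 CPM or more. The largest fall was that of LINC02864, a noncoding RNA on chromosome 18 (73151241 to 73264480, minus strand). It had 21.1 and 23.7 CPM in WT and at most 0.0708 CPM in ISL1-/- (-9.52, SE 1.81, adjusted p = 0.00737). Leaving out ISL1-/- BFP replicate 3 ended that call (0.053). CYSLTR2, a receptor for cysteinyl leukotrienes, fell from 27.3 and 24.9 CPM to 0.0885, 0.052 and 0.451 CPM (-7.00, SE 0.83, adjusted p = 8.59e-05). EDN3, the endothelin-3 gene, fell from 5.38 and 15.7 CPM to between 0.0933 and 0.159 CPM (-6.26, SE 0.94, adjusted p = 0.000724). TMEM236, a membrane protein, fell from 53.1 and 29.8 CPM to 0.761, 1.25 and 0.311 CPM (-5.75, SE 0.58, adjusted p = 1.6e-05). SLC24A4, a sodium-calcium exchanger, fell from 11.5 and 12.1 CPM to 0.336, 0.329 and 0.233 CPM (-5.29, SE 0.44, adjusted p = 2.04e-06). The other large falls were GCG, SST, PYY, G6PC2, LOXL4, TSPYL5 and ZNF585A.

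Rises of comparable size were fewer. CHCHD2, a mitochondrial protein whose gene has near-identical pseudogenes that may share its reads, had 0.154 and 0.212 CPM in WT and 147, 132 and 142 CPM in ISL1-/- (9.59, SE 0.90, adjusted p = 7.55e-06). After it and NGFR came PROKR1, a prokineticin receptor, which rose from 0.835 and 1.15 CPM to 12.6, 13.3 and 22 CPM (4.01, adjusted p = 0.00846). B3GAT1, which makes the neural HNK-1 sugar, rose from 1.54 and 1.69 CPM to 19.1, 15.7 and 27.2 CPM (3.68, SE 0.37, adjusted p = 1.63e-05). KCNIP1, a potassium channel partner, rose from 6.53 and 8.49 CPM to 71.5, 66.4 and 102 CPM (3.41, SE 0.49, adjusted p = 0.000511). NXPH4, a neurexophilin, rose from 6.75 and 6.53 CPM to 46, 39.9 and 48.5 CPM with the smallest p among the rises (2.75, SE 0.24, adjusted p = 3.62e-06). IRX5, an Iroquois homeodomain factor, rose from 6.59 and 4.14 CPM to 39, 33.2 and 40.5 CPM (2.80, SE 0.26, adjusted p = 7.25e-06). ENSG00000291250, an unnamed gene, rose by 3.66 (adjusted p = 6.03e-05).

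Developmental and synaptic genes stood among the remaining large rises. NEUROG1, a proneural factor of sensory neurons, rose from 1.03 and 1.63 CPM to 13, 11.4 and 19.5 CPM (3.46, adjusted p = 0.0158). DLX5, a homeodomain factor, rose from 1.3 and 1.09 CPM to 12.7, 6.65 and 21.8 CPM (3.52, adjusted p = 0.0131). Both were lost without ISL1-/- BFP replicate 3 or either WT library (up to 0.194 and 0.151). GRIK3, a kainate receptor subunit, rose from 4.22 and 6.11 CPM to 40.6, 47.1 and 39 CPM (3.03, adjusted p = 0.00619). GRIK3 and PROKR1 were lost without either WT library (up to 0.114 and 0.132).

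Several changes were close to a switch between absence and presence, and the remaining libraries show where they stand. CHCHD2 was at 129 to 147 CPM in all 6 ISL1-/- libraries of either vector and at no more than 0.919 CPM in the 15 libraries of the other genotypes. LINC02899, a noncoding RNA on chromosome 5, had 0 counts in the 3 ISL1-/- BFP libraries and 132 and 73 counts in WT BFP, which with the same floor is at least 155-fold lower (adjusted p = 7.05e-07). It was at 0 in the 3 ISL1-/- ISL1 libraries too, and at 2.21 to 6.82 CPM in the 15 others. TSPYL5, a nucleosome assembly-like gene on chromosome 8, was at 0.0866 to 0.737 CPM in the 6 ISL1-/- libraries and at 9.9 to 103 CPM in the others (ISL1-/- BFP against WT BFP -7.69, SE 0.80, adjusted p = 2.2e-05). The zinc finger gene ZNF596 was at 0.0467 to 0.184 CPM against 1.98 to 3.72 CPM (-5.68, SE 0.38, adjusted p = 1.51e-07). ASTE1, a nuclease-like gene that was also among the smallest p values, fell from 10.1 and 9.85 CPM to 0.85, 0.451 and 1.01 CPM (-3.69, adjusted p = 7.98e-07). TF and LOXL4 were likewise lower in all 6 than in every other library. Against PAX6-/- BFP and PDX1-/- BFP, which use the same ISL1-/- libraries, CHCHD2 differed by 13.97 and 13.91, TSPYL5 by -7.94 and -8.89, ZNF596 by -5.25 and -5.03, and TF by -4.05 and -4.01 (adjusted p at most 1.82e-05 each). In those comparisons 2.46% and 5.07% of genes were called. CHCHD2 was at no more than 0.0179 CPM in PAX6-/- BFP and 0.0219 CPM in PDX1-/- BFP. The sizes of its differences from these groups therefore depend on the prior count used for fold changes and are not measured folds. The lowest levels of TSPYL5 among the other genotypes, 11.6 and 9.9 CPM, were in the pair of libraries that stood apart.

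**Figure D4:**
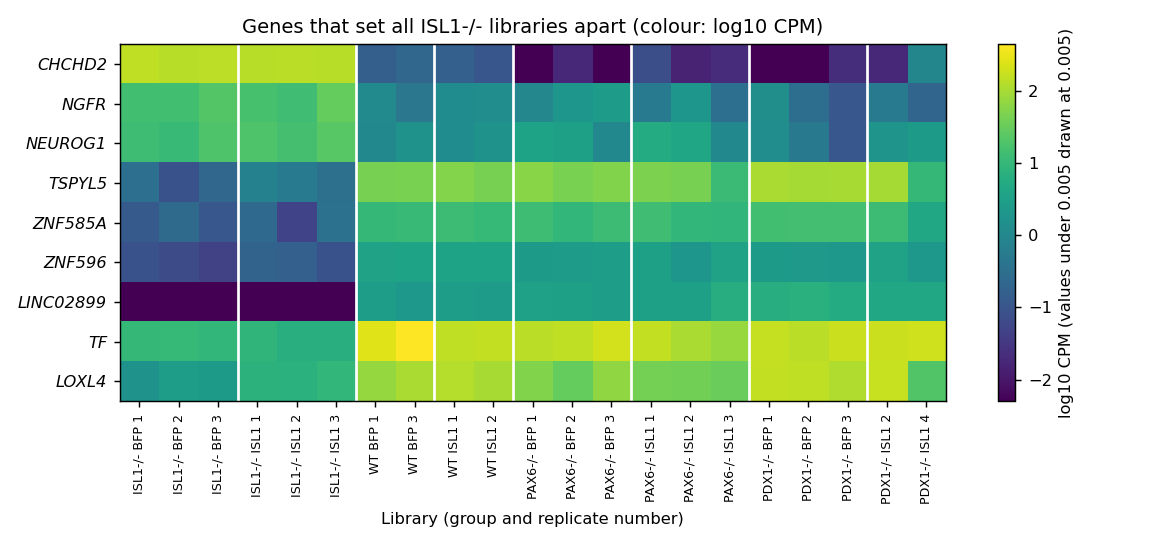
log10 CPM (colour) of 9 genes in all 21 libraries, ordered by genotype and vector with white lines between groups. The 6 ISL1-/- libraries on the left are brighter than the other libraries for CHCHD2 (129 to 147 CPM), NGFR and NEUROG1. They are darker than the others for the other 6 genes, with LINC02899 at 0.

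ZNF585A and ZNF585B, neighbouring paralogs on chromosome 19, moved in opposite directions. ZNF585A (37106734 to 37172741, minus strand) was at 9.96 and 10.9 CPM in WT BFP and 0.124, 0.26 and 0.109 CPM in ISL1-/- BFP (-5.97, SE 0.53, adjusted p = 4.31e-06). ZNF585B (37181579 to 37218153, minus strand) was at 1.01 and 0.786 CPM in WT BFP and 6.3, 6.08 and 5.94 CPM in ISL1-/- BFP (2.76, SE 0.40, adjusted p = 0.00054). The same held across the series: ZNF585A lay at 0.0499 to 0.36 CPM in the 6 ISL1-/- libraries and 4.5 to 15 CPM elsewhere, and ZNF585B at 5.49 to 6.62 CPM and 0.464 to 2.33 CPM. ZNF420 and ZNF383, whose ranges on the plus strand overlap the outer ends of the pair, did not pass (0.02, adjusted p = 0.989, and -0.44, adjusted p = 0.313). The paralogs are alike in sequence, so the counting could have divided or dropped shared reads, and the levels of each are uncertain. ZNF585B was chosen after its values were seen.

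Some called genes were neighbours. On chromosome 2 the deposited coordinates place SLC4A10 (161424332 to 161985282, plus strand), DPP4 (161992245 to 162074394, minus strand), GCG (162142882 to 162152404, minus strand), ENSG00000236841 and FAP (162170684 to 162245151, minus strand) in a row. All 5 were lower in ISL1-/-. SLC4A10, a bicarbonate transporter, fell from a mean of 2.06 CPM to 0.174 CPM (-3.52, adjusted p = 0.00826). DPP4 fell from 1787 and 1744 CPM to 424, 474 and 272 CPM. ENSG00000236841 overlaps the end of FAP on the other strand, so reads from the shared stretch cannot be told apart. The 2 genes between DPP4 and GCG, DPP4-DT (-1.94, adjusted p = 0.0739) and ENSG00000233397 (-4.42, adjusted p = 0.0715), did not pass, nor did IFIH1 (-0.69, adjusted p = 0.0503) and GCA (-0.78, adjusted p = 0.121) beyond FAP. On chromosome 17 PPY, PYY and NAGS lie side by side, and all 3 were lower, NAGS by 1.76 (adjusted p = 0.0154), while TMEM101, the next gene, changed by -0.05 (adjusted p = 0.973). On chromosome 21 TFF3 and TFF2 rose and the adjacent TFF1 changed by 0.07 (adjusted p = 0.959). These neighbourhoods were picked after the values were seen.

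Gene families were counted to show whether changes gathered outside the islet lists. Over all genes tested 3.92% were lower and 1.67% higher. Not all of the 20 families counted are given. Of 26 ephrin and ephrin receptor genes and of 26 WNT and Frizzled genes 0 were called. Of 481 zinc finger genes 7 were higher and 6 lower. Of 351 solute carrier genes 41 were lower and 4 higher (median -0.26). Of 19 claudin genes, which seal epithelial junctions, 5 were lower and 0 higher (median -1.13). CLDN4 fell from 660 and 696 CPM to 265, 193 and 231 CPM (-1.56, SE 0.26, adjusted p = 0.0017) and kept its call in all 5 fits. CLDN1, CLDN6, CLDN7 and CLDN11 fell by 1.53, 1.49, 1.78 and 4.01. CLDN1 was lost without WT BFP replicate 3 (0.0547), CLDN6 without either WT library (up to 0.0698), CLDN7 without any one of the 5 (up to 0.179) and CLDN11 without all but ISL1-/- BFP replicate 2 (up to 0.112). Of 20 ionotropic glutamate receptor genes 4 were higher and 1 lower (median 0.52). GRIK4 rose from 1.08 and 1.12 CPM to 6.18, 6.62 and 7.03 CPM (2.59, SE 0.39, adjusted p = 0.000806), and GRIA3 fell from 59.8 and 75.9 CPM to 18.4, 21 and 24.2 CPM (-1.68, SE 0.25, adjusted p = 0.000699). Of 17 SOX genes 4 were higher and 0 lower (median 0.59), and of 86 potassium channel genes 8 were higher and 9 lower (median 0.18). Members of families were chosen after their values were seen.

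The same genotypes were also sequenced with the ISL1-labelled vector, in 3 ISL1-/- and 2 WT libraries that the comparison above does not use. ISL1 counts were close in both vector groups (71.6 to 96.8 CPM in ISL1-/- ISL1 libraries and 337 to 361 CPM in WT ISL1), so these groups are named by their labels. In that comparison 962 genes were called (3.72%). Of the 1448 genes called in BFP-labelled libraries 1414 changed in the same direction (97.7%), and 588 were called with the same sign (40.6%), against 0 called with the opposite sign. Their changes were smaller there, with a median of 0.97 beside 1.71 for higher genes and -1.32 beside -1.90 for lower genes. A call in the first comparison favours large changes in it, and the cause of the smaller sizes was not tested. Among the 316 genes called in all 5 fits above, 241 were called there too (76.3%). The comparisons share no library, but they share the estimate of the spread and the cell lines. Genes picked by a call in the first comparison are prone to keep their direction in the second. The share with the same direction over all genes tested is not given here.

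GCG with the ISL1 label was at 2197, 2689 and 5362 CPM in ISL1-/- ISL1 libraries and 34367 and 31162 CPM in WT ISL1, a change of -3.26 (adjusted p = 0.0585) beside -9.03. SST was at 4.15, 5.82 and 11.5 CPM against 159 and 149 CPM (-4.42, adjusted p = 0.00854, beside -7.82). For GCG the difference between the changes was 5.77 and did not pass (adjusted p = 0.582), and for SST it was 3.40. The difference was called for 1 gene of 25884 (0.00386%), SLC24A4, and 769 genes had an unadjusted p under 0.05. CHCHD2 (9.90), TSPYL5 (-6.44), ZNF585A (-5.72) and LINC02899 (-10.19) differed between genotypes in ISL1-labelled libraries as in BFP-labelled ones (adjusted p at most 0.00015). LINC02899 was at 0 CPM in every ISL1-/- ISL1 library. The size of its change there therefore depends on the prior count used for fold changes and is not a measured fold. INS changed by -1.77 (adjusted p = 0.37) and TPH1 by 1.51 (adjusted p = 0.128) there.

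**Figure D5:**
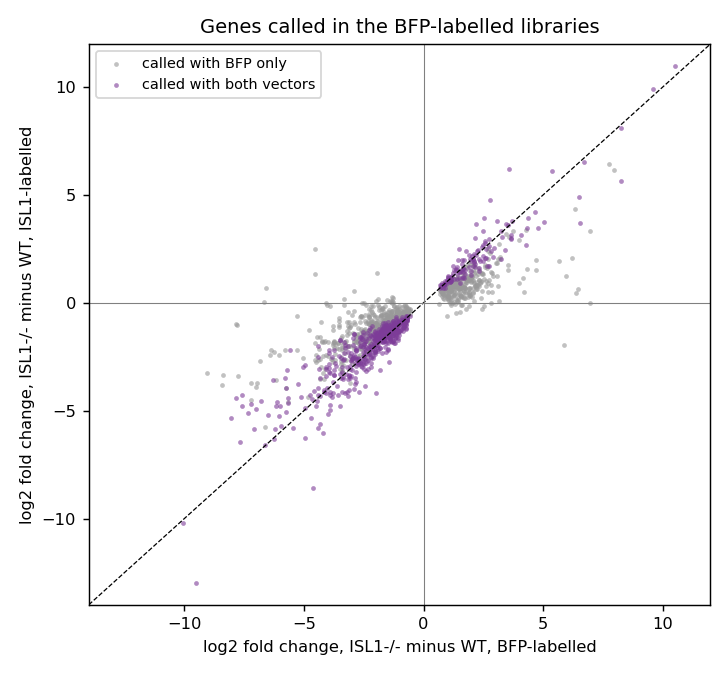
log2 fold change of ISL1-/- over WT in BFP-labelled libraries (x axis) and in ISL1-labelled libraries (y axis) for the 1448 genes called in the first, 1 point per gene, with the line of equality dashed. Purple points (588) are called in both. Most points lie at the lower left and upper right (1414 of 1448).

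Levels in the other knockouts set these changes in context. GCG was at 29.1, 15.7 and 77.9 CPM in PAX6-/- BFP and at 14965, 19603 and 16280 CPM in PDX1-/- BFP. The difference in GCG between ISL1-/- BFP and PAX6-/- BFP was 1.03 and did not pass (adjusted p = 0.85), with the 2 groups' libraries overlapping at 74.2 and 77.9 CPM. GCG in ISL1-/- BFP was lower than in PDX1-/- BFP (-7.67, adjusted p = 0.000507). SST in ISL1-/- BFP was lower than in PAX6-/- BFP (-4.40, adjusted p = 0.00945) and in PDX1-/- BFP (-5.28, adjusted p = 0.00254), where it had a mean of 10.8 CPM ± 6.04 and 19.8 CPM ± 11.1 (SD, n = 3 each). GHRL had a mean of 43 CPM in ISL1-/- BFP and 3258 CPM in PAX6-/- BFP. Among serotonin-cell genes, TPH1 had a mean of 129 CPM in PAX6-/- BFP, 450 CPM in PDX1-/- BFP and 181 CPM in ISL1-/- BFP, and ISL1-/- did not pass the threshold against either (adjusted p 0.905 and 0.11). NGFR, NEUROG1 and IRX5 were higher in ISL1-/- BFP than in both. NGFR differed by 3.13 and 4.77, NEUROG1 by 2.45 and 4.48, and IRX5 by 2.05 and 1.53 from PAX6-/- BFP and PDX1-/- BFP, with adjusted p from 2.96e-05 to 0.0499.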

How the data were processed

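RNA was sequenced in 21 libraries of BFP-sorted cells, in 8 groups of genotype and vector. The authors deposited raw read counts per gene for each library. Per the submitters' processing notes, the tools included STAR 2.7.11b and featureCounts 2.1.1 with the build GRCh38, and a strand setting is not given in the sources used here. Per the labels' protocols, libraries were made with SMART-Seq v4. Of 62700 genes in the deposited table, 1 entry broken over lines was left out. Gene symbols came from a name table that matched all 62699 others.

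Counts were analysed in R 4.3.3 with edgeR 4.0.16: TMM scaling, filterByExpr by group (minimum count 10, minimum total 15) and the quasi-likelihood test, with a coefficient per group over all 21 libraries and Benjamini-Hochberg adjustment over 25884 genes. Fold changes used a prior count of 0.125. The common biological coefficient of variation was 0.334. Depth was 36807615 to 60199880 counts per library. Intervals (95%) and the floor of 3 counts cover counting error only. Alternatives used DESeq2 1.42.0, limma 3.58.1 voom, other sample sets, filters and scaling, and each library left out.

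Named genes were ISL1, those of 23 lists (405 genes), the 12 largest rises and 12 largest falls (adjusted p under 0.05, higher group averaging 10 CPM or more, no overlap), the 5 smallest p in each direction and genes called in the interaction. Some genes this rule picked are not reported here. SLC2A14, CELA3B, neighbouring genes and family members were chosen after their values were seen. The comparison and lists were chosen with earlier results of these data known. Replicates are numbered by the library name, which differs from the title for WT BFP (1 and 3).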

Additional observations from a re-analysis of the deposited data

Results flagged for a closer look

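SLC24A4, a sodium-calcium exchanger, was singled out because the genotype effect differed between vectors by a test of the difference itself. The effect was -5.29 in BFP-labelled libraries and -0.63 in ISL1-labelled ones, a difference of 4.66 (edgeR interaction, adjusted p = 0.0085). ISL1-/- libraries held a mean of 0.3 CPM with BFP and 7.02 CPM with the ISL1 label, and the WT means were 11.8 and 10.9 CPM. The number of genes called in this test was 0 without ISL1-/- BFP replicate 3, WT BFP replicate 3, WT ISL1 replicate 1 or WT ISL1 replicate 2.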

How the results depend on the processing

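The 1448 genes called between ISL1-/- BFP and WT BFP became 5846 on only the 5 libraries compared (46.7% of them higher, against 29.9%), 5673 on the 11 BFP libraries, 2419 with the DESeq2 Wald test, 6878 with limma voom and sample weights, and 556 at an adjusted p under 0.01. In ISL1-labelled libraries the 962 became 5649 on the libraries compared, 1900 with DESeq2, 6338 with voom and 311 at 0.01. The 1 gene of the interaction became 108, 16 and 150 in the first 3 of these, and 2 with no filter on low counts. Leaving out libraries gave 459 to 6417, 242 to 5308 and 0 to 84 genes. With a replicate block by library number the first 2 counts were 3150 and 2423, and with a replicate block by title number 1336 and 977. Same-numbered libraries correlated at only 0.04 and 0.08 in their deviations, so the numbers were not taken to pair them. DESeq2 size factors, no filter and a minimum of 50 counts gave 1472, 1553 and 1552 for the main comparison. The change of ISL1 kept its direction and call in every alternative (-2.75 to -2.00). Of 122 called genes named in the text or examined with them, 52 kept their call whichever library was left out, and 0 of their values reversed in any alternative. The call was lost for 64 genes without WT BFP replicate 1, 57 without WT BFP replicate 3, 34, 31 and 49 without ISL1-/- BFP replicates 1, 2 and 3, 12 with the block by title number (TPH1, SLC18A1, MME and LEPR among them, adjusted p 0.0577, 0.0575, 0.051 and 0.0515), 8 with no filter (AQP3, SOX11, SSBP3 and VIL1 among them), 2 with a minimum of 50 counts, which left FAP and CELA3A untested, 1 with DESeq2 size factors and 0 with the other fits. Where an arm kept 1 library, it was assumed to vary like the other groups. The cause of these differences was not tested. Depth limits genes with few counts, such as PPY, whose fold has a wide counting interval.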
